A study of Drosophila melanogaster with 10 samples.

Results

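The genes described here are 5 receptor tyrosine kinase genes of Drosophila, sev, Alk, Egfr, InR and Pvr, and rho, which encodes a protease that releases ligands of the EGF receptor. They were chosen by symbol, with earlier results of these data known, and all 6 were among the 7624 genes of the authors' table. The measurements come from ML-DmBG3-c2 cells, a cultured line that originated in the central nervous system of larvae, in which RNA interference (RNAi) was directed against Ph or against Sce. Both are subunits of Polycomb repressive complex 1 (PRC1), and the series' design set each treatment against mock-treated cells. Nascent RNA was isolated from chromatin in 10 libraries, of which 3 were mock, 3 were labelled Ph RNAi and 4 were labelled Sce RNAi. The control cells went through a mock treatment, all cells were grown with insulin, and the labels give no age or time after treatment. Mixtures of double-stranded RNAs against each target were used in most experiments, per the labels. The table also gives ratios for total RNA after RNAi against Ph, Sce or Pc, another PRC1 subunit, from libraries outside these 10.

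Receptor tyrosine kinases sit in the cell membrane, pair when a ligand binds and phosphorylate each other, and most of them pass the signal through the small GTPase Ras and the MAP kinase cascade to transcription factors of the ETS family. The EGF receptor ligand Spitz is made as an inactive membrane protein that Star carries out of the endoplasmic reticulum and Rhomboid, the product of rho, cuts. Signal strength is thereby often set by where rho is transcribed. In flies sev specifies the R7 photoreceptor of the eye, Alk acts in visceral muscle and in the nervous system, InR controls growth, and Pvr, the PDGF and VEGF receptor homolog, acts in blood cells and cell migration. PRC1 is best known for keeping developmental genes silent, and the title of the series names active genes as its subject.

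The table holds the authors' mean signal per gene and group, not values per library. No error can therefore be put beside a mean. Only the p and q of the authors' deposited table take in the replicate spread, and they mix it with the size of the difference and the number of libraries. The words rose and fell are kept for genes with a q below 0.05 there. The labels number the replicates without saying whether they were separate cultures, so the spread may be technical. Depth per library is unknown. The 3 nascent columns summed to between 191793598 and 192278102 signal units, so they had been brought to a common total and a global shift would not show. The targeted genes were higher, not lower, under their own label. In the authors' deposited table nascent ph-p, ph-d and Sce were at 4.87, 5.39 and 118 times mock under their own label, and total RNA of Pc was at 21.5 times mock after Pc RNAi. Under the other label nascent ph-p and ph-d were at 0.935 and 0.969 times mock and Sce at 1.80 times. Total RNA of Pc was at 1.24 times mock after Ph RNAi and 1.06 times after Sce RNAi. Each excess was thus largest under the matching label, and its cause was not tested. As no targeted gene was lower under its own label, treated groups are named by label, and every direction below rests on those labels.

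Of the 6 genes, sev rose and none fell in nascent RNA of the libraries labelled Ph RNAi. Both sev and rho had far more signal there than in mock, InR had somewhat more, and Alk had less. In the libraries labelled Sce RNAi no gene of the 6 passed the threshold, and sev stood below mock there. In total RNA sev rose after both Ph RNAi and Pc RNAi, while rho and InR passed the threshold for a rise after Pc RNAi. Egfr and Pvr passed in none of the 5 comparisons. The 1 rise among 6 genes in nascent RNA after Ph RNAi compares with 1.69% of all genes called higher and 0.787% called lower in that comparison.

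**Figure D1:**
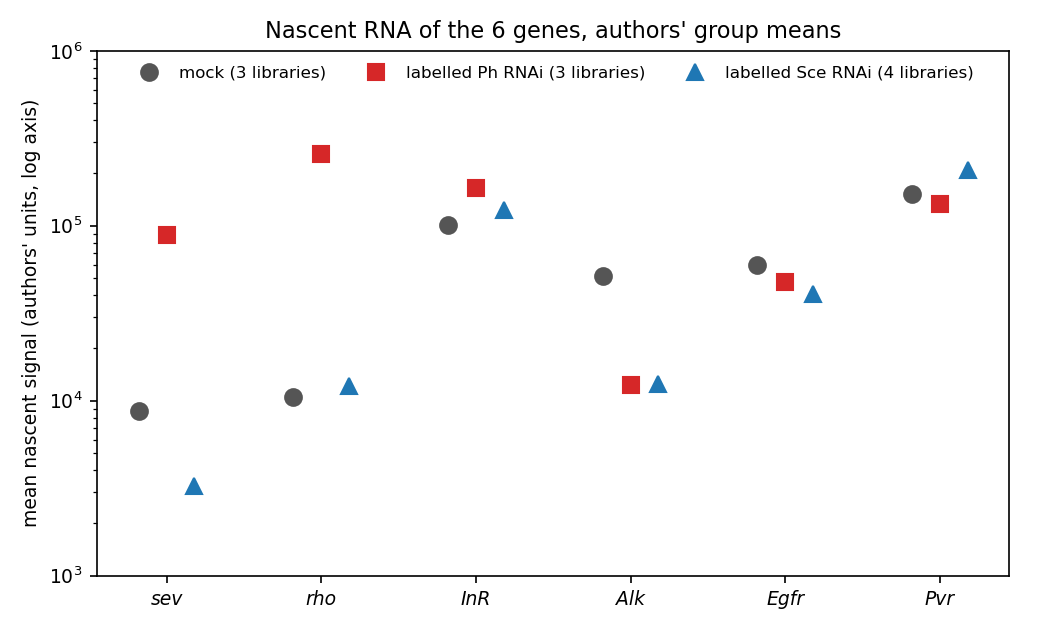
Authors' mean nascent signal (vertical axis, log scale) of each gene in mock (circles), in the libraries labelled Ph RNAi (squares) and in those labelled Sce RNAi (triangles). The squares of sev and rho, at 88735 and 258664, lie far above their other points, and both treated points of Alk, at 12219 and 12488, lie below its mock point.

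The sevenless gene sev had a mean nascent signal of 8712 in mock, 88735 in the libraries labelled Ph RNAi and 3260 in those labelled Sce RNAi. The Ph RNAi group was thus the high one and the Sce RNAi group the low one. In the authors' deposited table sev was at 10.2 times mock after Ph RNAi, with a p listed at 0, which stands for a value under 0.0005, and a q of 0.017. Ranked from the largest ratio down, sev stood at place 125 of the 7624 genes in this comparison. After Sce RNAi the ratio in the authors' deposited table was 0.374, with p = 0.016 and q = 0.31, so the low value passed before adjustment over all genes and not after it. Total RNA gave sev 27.0 times mock after Ph RNAi with q = 0.009, 4.83 times after Pc RNAi with q = 0.013 and 1.59 times after Sce RNAi with q = 0.402 in the authors' deposited table. The gene therefore rose in 3 of the 5 comparisons, the most of the 6 genes.

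The rhomboid gene rho had the largest nascent difference of the 6 and did not pass the threshold. Its mean signal was 10443 in mock, 258664 in the libraries labelled Ph RNAi and 12145 in those labelled Sce RNAi, so the mock and Sce RNAi means lay close together. The ratio after Ph RNAi was 24.8 in the authors' deposited table, rank 55 from the top, with p = 0.011 and q = 0.102. Of 94 genes with measurable signal and at least 10 times mock in this comparison, 37 (39.4%) passed that q in the authors' deposited table. Measurable signal means here that the mean over the 3 nascent columns exceeded 581. A gene with little mock signal can thus be among the 94 through its high Ph RNAi mean alone. The share therefore does not tell how often genes with a mock mean like that of rho passed. In total RNA rho was at 10.9 times mock after Ph RNAi (p = 0.048, q = 0.155) and rose to 3.24 times mock after Pc RNAi (p = 0.001, q = 0.035) in the authors' deposited table. After Sce RNAi it was at 1.16 times mock in nascent and 1.45 times in total RNA, the authors' deposited table listing q of 0.67 and 0.461.

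The gene model of rho lies wholly within that of Ptp61F, a protein tyrosine phosphatase gene, on the opposite strand. The labels name separate tracks for each strand, but how the gene table treated strand is not given in those sources. In the authors' deposited table Ptp61F itself was at 0.848 times mock after Ph RNAi (q = 0.529) and 0.834 times after Sce RNAi (q = 0.659) in nascent RNA, so the host gene did not share the high value of rho. The models of Alk and Pvr overlap no other gene model, and other models cover 3.24% of sev, 12.9% of Egfr and 11.8% of InR, none of them from genes of the table.

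For InR the mean nascent signal was higher than mock in both treated groups. Its means were 101390 in mock, 165035 in the libraries labelled Ph RNAi and 123026 in those labelled Sce RNAi. The ratios in the authors' deposited table were 1.63 after Ph RNAi (p = 0.029, q = 0.159) and 1.21 after Sce RNAi (p = 0.314, q = 0.625), and neither passed. Total RNA of this insulin receptor gene was above mock in all 3 treatments. In the authors' deposited table it was at 1.45 times mock after Ph RNAi (p = 0.027, q = 0.122), at 1.82 times after Sce RNAi (p = 0.005, q = 0.197) and at 1.92 times after Pc RNAi (p = 0.002, q = 0.038). The last is a rise by the authors' q, but Benjamini-Hochberg adjustment of the same deposited p over the 7624 genes gave 0.061, which ends the call.

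Alk, which encodes the receptor for the ligand Jelly belly, had the lowest nascent ratios of the 6 genes. Its mean was 51649 in mock against 12219 in the libraries labelled Ph RNAi and 12488 in those labelled Sce RNAi, so the treated means lay close to each other and well under mock. The authors' deposited table gives this as 0.237 times mock after Ph RNAi (p = 0.131, q = 0.297) and 0.242 times after Sce RNAi (p = 0.072, q = 0.462). Both ratios were thus more than 4-fold down without passing even before adjustment, and both share the mock libraries. Of 37 genes with measurable signal at 0.25 times mock or less after Ph RNAi, 8 (21.6%) passed that q in the authors' deposited table. The same filter was used, so genes with little signal after Ph RNAi can be among the 37. Total RNA of Alk was at 0.52 times mock after Ph RNAi (q = 0.453), 0.99 times after Sce RNAi (q = 0.614) and 3.45 times after Pc RNAi (p = 0.037, q = 0.203) in the authors' deposited table. It was the 1 gene of the 6 whose total RNA stood below mock after Ph RNAi by more than 1.5-fold and above mock after Pc RNAi by as much, with no test of that contrast.

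Egfr and Pvr had smaller differences. Egfr had nascent means of 59950 in mock, 47837 in the libraries labelled Ph RNAi and 40641 in those labelled Sce RNAi, so both treated means were under mock. The corresponding ratios in the authors' deposited table were 0.798 (p = 0.425, q = 0.473) and 0.678 (p = 0.156, q = 0.547). In total RNA the EGF receptor gene was instead at 1.80 times mock after Ph RNAi (p = 0.101, q = 0.218), 1.25 times after Sce RNAi (q = 0.522) and 1.18 times after Pc RNAi (q = 0.622) in the authors' deposited table. Pvr had nascent means of 150871 in mock, 133335 in the libraries labelled Ph RNAi and 209316 in those labelled Sce RNAi, so the Sce RNAi group was the high one. Its ratios in the authors' deposited table were 0.884 (p = 0.437, q = 0.479) and 1.39 (p = 0.137, q = 0.537) in nascent RNA. For total RNA of Pvr the authors' deposited table lists 0.847 after Ph RNAi, 1.19 after Sce RNAi and 1.09 after Pc RNAi, with q from 0.482 to 0.635. With no error on the means, an interval for these differences cannot be given, and a p that misses the threshold does not show equal transcription.

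**Figure D2:**
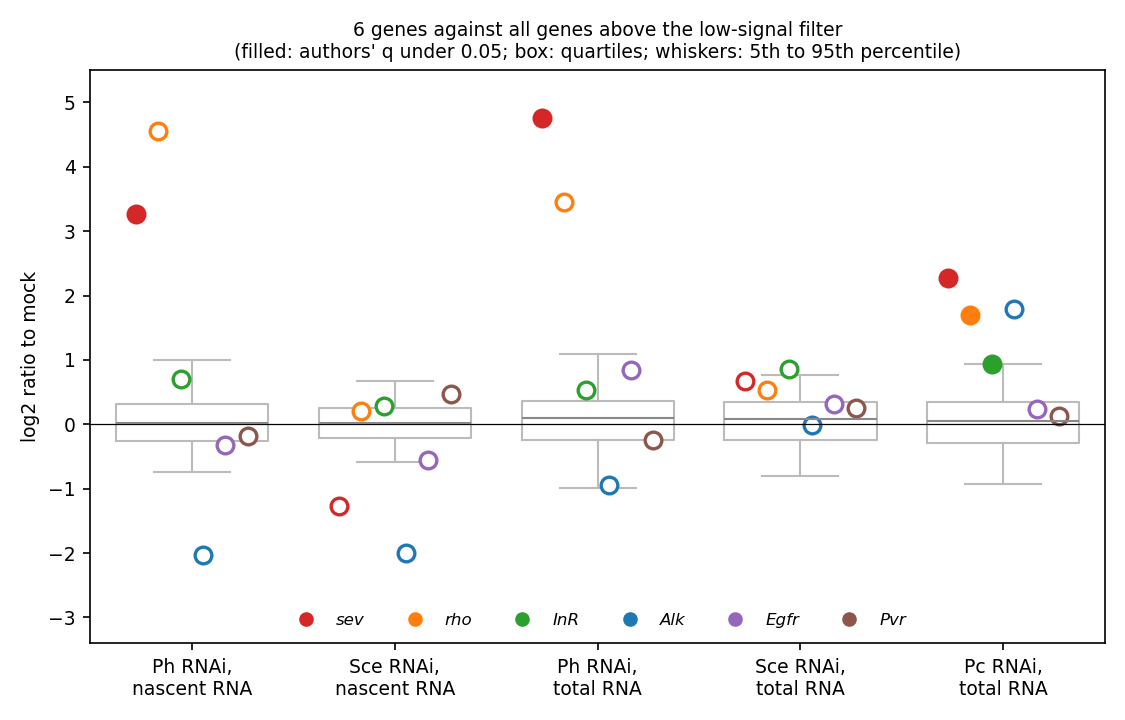
Log2 ratio to mock (vertical axis) of the 6 genes in the 5 comparisons, over boxes with the quartiles and whiskers from the 5th to the 95th percentile of the 6942 genes above the low-signal filter. Filled points have an authors' q under 0.05: sev in 3 comparisons, and rho and InR after Pc RNAi in total RNA.

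The counts of the 6 genes were read against the share of all genes called in the same comparison. Since the genes were chosen with earlier results of these data known, the shares are a description and not a test. For Sce RNAi in nascent RNA 0 of the 6 genes passed, where 0.0656% of all genes were called higher and 0.0525% lower, and the authors' deposited table holds 1 of the 6, sev, with p below 0.05 before adjustment, beside 9.90% of all genes in either direction. Total RNA after Sce RNAi also gave 0 of 6, with 0.236% of all genes called higher and 0.0131% lower, and the authors' deposited table gives InR as the 1 gene with p below 0.05 before adjustment, beside 11.6% of all genes. Total RNA after Ph RNAi gave 1 of 6 higher, where 3.52% of all genes were called higher and 0.367% lower. Total RNA after Pc RNAi gave 3 of 6 higher, where 3.04% of all genes were called higher and 0.144% lower. Of these 3, InR did not hold under Benjamini-Hochberg adjustment of the deposited p, at 0.061. The median ratio of the 6 genes in that last comparison was 2.58 in the authors' deposited table, all 6 being above 1, beside a median of 1.03 over all genes. In nascent RNA the 6 were evenly divided, with 3 ratios above 1 and 3 below 1 after each treatment. Dividing the mean labelled Ph RNAi by the one labelled Sce RNAi, a contrast with no p, gave 27.2 for sev and 21.3 for rho, against 1.34 for InR, 1.18 for Egfr, 0.978 for Alk and 0.637 for Pvr.

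Levels of different genes were compared per length of gene model. The nascent signal of a gene increased with the length of its model (rank correlation 0.63 across 7508 genes in mock, where genes are not independent replicates) and hardly so once divided by that length (0.081). Per kilobase of gene model the mock signal was 7983 for Pvr, 3509 for Alk, 2066 for InR, 2034 for rho, 1596 for Egfr and 586 for sev, beside a median of 1562 over all matched genes. In this scale Pvr lay at percentile 93.3 of all genes and sev at percentile 21.0, so the receptors spanned most of the range in mock cells. In the libraries labelled Ph RNAi the order per kilobase changed to rho at 50382, Pvr at 7055, sev at 5972, InR at 3363, Egfr at 1274 and Alk at 830. Thus rho went from percentile 60.5 of nascent signal per kilobase to 99.6, sev from 21.0 to 88.9, and Alk from 78.6 down to 27.6. In the libraries labelled Sce RNAi the order was Pvr at 11075, InR at 2507, rho at 2366, Egfr at 1082, Alk at 848 and sev at 219 per kilobase. The spread between libraries is not available for these levels, so neighbours in each order, such as InR and rho in mock, cannot be told apart. The moves in percentile were not tested either. In the authors' deposited table the nascent ratio after Ph RNAi passed for sev (q = 0.017), and not for rho (q = 0.102) or Alk (q = 0.297).

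**Figure D3:**
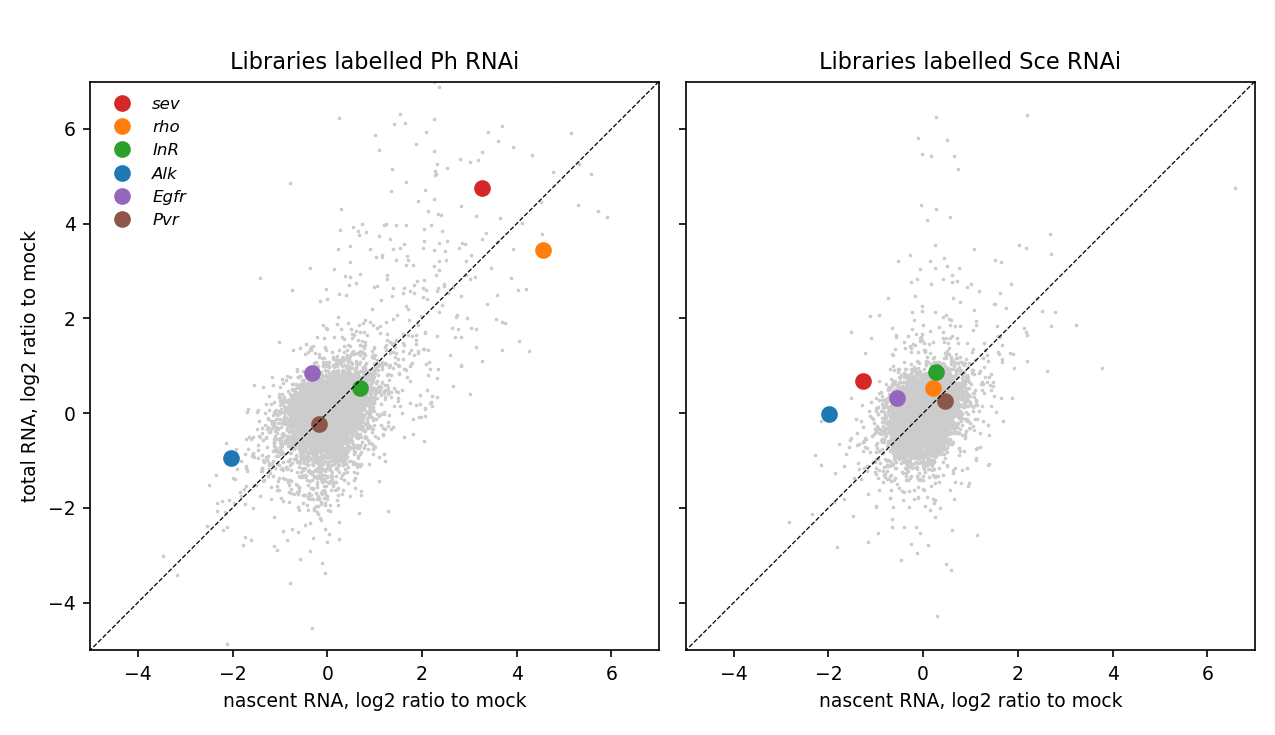
Log2 ratio to mock in nascent RNA (horizontal axis) and in total RNA (vertical axis) of the 6 genes (coloured) and of the genes above the low-signal filter (grey), for the libraries labelled Ph RNAi (left) and Sce RNAi (right). The dashed line marks equal ratios, and 29 and 4 grey genes lie outside the axes. The points of sev, Alk and Egfr lie above the line in both panels, and that of rho lies below it after Ph RNAi.

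The ratios to mock in nascent and in total RNA were not of the same size. The difference between the log2 ratio in total RNA and that in nascent RNA after Ph RNAi was 1.49 for sev, 1.17 for Egfr and 1.09 for Alk, each above the 95th percentile of all genes with measurable signal, 0.97. For rho it was -1.11, at the 5th percentile of -1.11, and for InR and Pvr it was -0.17 and -0.06. After Sce RNAi the difference was 1.98 for Alk, 1.94 for sev and 0.88 for Egfr, again above the 95th percentile of 0.83, and 0.58, 0.33 and -0.22 for InR, rho and Pvr. The ratio to mock of the 3 receptors sev, Alk and Egfr was thus higher in total than in nascent RNA after both treatments. The Ph RNAi and Sce RNAi differences share the same nascent mock and the same total RNA mock, so their likeness is partly built in. Total and nascent RNA each have a mock column of their own, and only the nascent log2 ratio holds a pseudocount. No test of this difference was possible.

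The genes around the receptors were taken from 7 lists of 105 genes in all, of which 80 were in the table. Counted together, 2 of these 80 rose and 2 fell in nascent RNA after Ph RNAi by the authors' deposited table, 2.5% in each direction beside 1.69% and 0.787% of all genes. At an unadjusted p under 0.05 the counts were 16 higher and 7 lower (20.0% and 8.75%), where all genes gave 9.82% and 6.66%. After Sce RNAi 0 of the 80 passed in nascent RNA, where only 0.0656% of all genes were called higher and 0.0525% lower. At an unadjusted p under 0.05, 9 were higher and 4 lower there (11.25% and 5.0%), where 9.90% of all genes had such a p in either direction. In total RNA after Ph RNAi 6 rose and 1 fell (7.5% and 1.25%, beside 3.52% and 0.367% of all genes). In total RNA 0 passed after Sce RNAi, beside 0.236% of all genes called higher and 0.0131% lower. After Pc RNAi 2 rose in total RNA, 2.5% beside 3.04% of all genes.

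**Figure D4:**
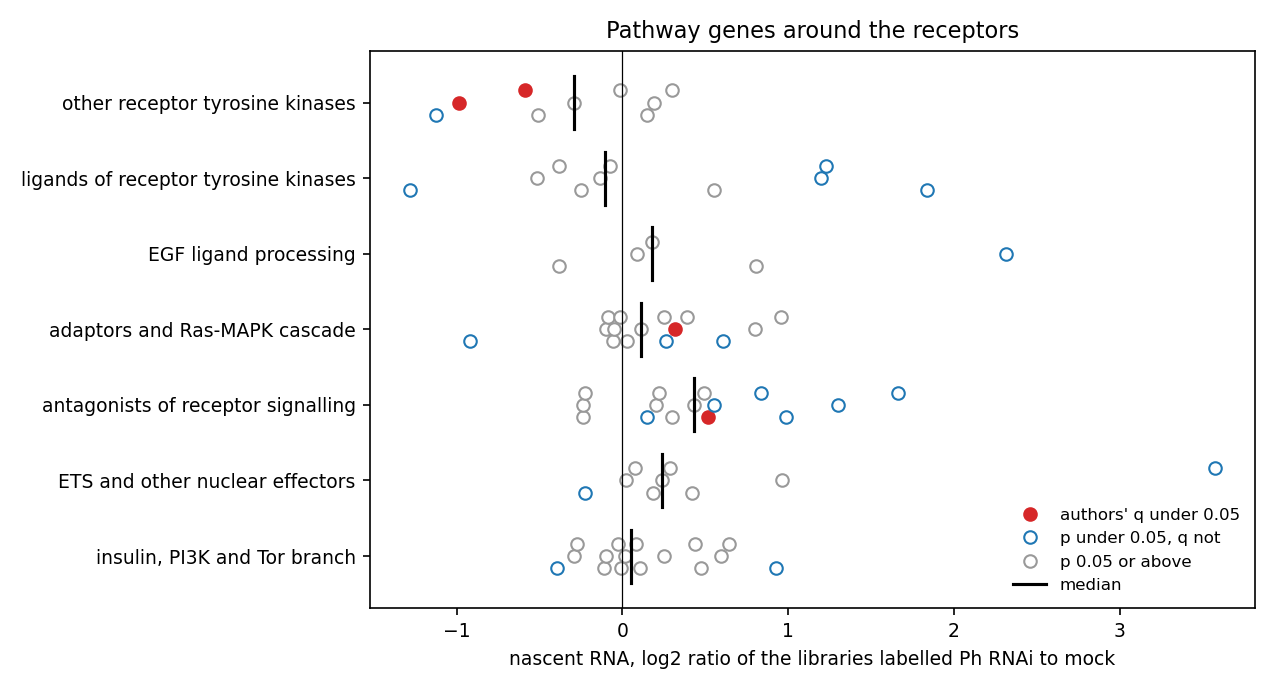
Log2 nascent ratio of the libraries labelled Ph RNAi to mock (horizontal axis) for the listed genes above the low-signal filter, by list, with each list's median as a bar. Filled points passed the authors' q under 0.05 (otk and dnt below 0, phl and kek5 above), and open blue points passed only the unadjusted p.

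The 2 genes that fell belong to the other receptors, of which 9 of 15 were in the table. They were dnt, a Wnt receptor gene of the Ryk family, from 47803 to 23858 (ratio 0.499, q = 0.021), and otk, which encodes an off-track receptor with an inactive kinase domain, from 114259 to 75684 (ratio 0.662, q = 0.041), both in the authors' deposited table. After Sce RNAi the authors' deposited table puts them at 0.667 times mock (q = 0.141) and 0.85 times mock (q = 0.576). Drl-2, also of the Ryk family, was at 0.293 times mock after Ph RNAi with q = 0.085 in the authors' deposited table, from a mean of 1887. The median log2 nascent ratio of the 9 was -0.29 after Ph RNAi, beside 0.026 over all genes above the low-signal filter. In total RNA the authors' deposited table lists rises of the FGF receptor gene htl to 2.01 times mock (q = 0.046) and of CG8964, whose newer name is otk2, to 1.64 times (q = 0.017) after Ph RNAi. Cad96Ca, a receptor kinase gene, rose to 7.20 times mock after Pc RNAi in total RNA (q = 0.025 in the authors' deposited table) while its nascent mean in mock was 852, near the low-signal limit of 581.

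Of the ligand genes 11 of 22 were in the table and 0 passed in nascent RNA. All genes gave 1.69% higher and 0.787% lower after Ph RNAi, and 0.0656% and 0.0525% after Sce RNAi. Of the 3 ligand genes of Pvr, Pvf1 was at 0.385 times mock in nascent RNA after Ph RNAi (12629 to 4864, q = 0.054) and fell to 0.505 times in total RNA (q = 0.049) in the authors' deposited table. Pvf2 and Pvf3 were at 0.763 and 0.906 times mock in nascent RNA after Ph RNAi and, unlike Pvf1 at 0.627 times, above mock after Sce RNAi. There the authors' deposited table lists 1.82 times for Pvf2 (q = 0.532) and 1.90 times for Pvf3 (p = 0.001, q = 0.107). The EGF receptor ligand genes were at 0.699 times mock for spi, 0.935 for Krn, 1.48 for vn and 8.05 for grk after Ph RNAi, the authors' deposited table giving q of 0.271, 0.617, 0.305 and 0.064. The mock mean of grk, 334, lay under the low-signal limit, so the size of that ratio is uncertain. In the step where rho acts, the Star gene S was at 5.03 times mock after Ph RNAi (37908 to 190720, p = 0.005, q = 0.073) and 0.969 times after Sce RNAi (q = 0.627) in the authors' deposited table. Total RNA of S was at 3.09 times mock after Ph RNAi with q = 0.056 and at 2.01 times after Pc RNAi with q = 0.117 in the authors' deposited table. The related protease gene stet, which lies beside rho, was at 1.89 times mock after Ph RNAi with q = 0.249 in the authors' deposited table, and rho-4, rho-5 and rho-7 lay between 0.705 and 1.15.

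All 15 genes of the adaptors and the Ras and MAP kinase cascade were in the table. Of these the Raf gene phl rose in nascent RNA after Ph RNAi to 1.25 times mock (32011 to 39971, q = 0.031 in the authors' deposited table), and 0 fell. In that comparison 1.69% of all genes were called higher and 0.787% lower. Ras85D was at 2.02 times mock with q = 0.231 and the Src kinase gene Src64B at 0.528 times with q = 0.054 in the authors' deposited table. The median log2 nascent ratio of the list was 0.11.

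Antagonists of receptor signalling had the highest median log2 nascent ratio of the 7 lists after Ph RNAi, 0.43, with 12 of 15 genes above 1. At an unadjusted p under 0.05 7 of the 15 were higher, where all genes gave 9.82%, and 1 rose, where all genes gave 1.69%. The gene that rose was kek5, of the Kekkon family of membrane proteins, at 1.435 times mock (222429 to 319066, q = 0.036 in the authors' deposited table). Its relative kek1, an inhibitor of the EGF receptor, was at 1.99 times with q = 0.196, the Sprouty gene sty at 1.47 times with q = 0.055, and puc, a phosphatase gene of the JNK pathway, at 2.47 times with q = 0.054 in the authors' deposited table. The secreted EGF receptor antagonist gene aos was at 3.41 times mock in nascent RNA (q = 0.173) and rose to 8.73 times in total RNA (q = 0.043) after Ph RNAi in the authors' deposited table. Spred, which acts like Sprouty on Ras signalling, rose to 1.59 times in the same total RNA comparison (q = 0.043 in the authors' deposited table). Under quantile normalization of the group means the median of this list was 0.29.

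Of the nuclear effectors 9 of 14 were in the table and 0 passed in nascent RNA. The shares of all genes were 1.69% higher and 0.787% lower after Ph RNAi, and 0.0656% and 0.0525% after Sce RNAi. The ETS factor gene Ets21C was at 12.6 times mock after Ph RNAi (8513 to 107606, p = 0.015, q = 0.117) and 6.51 times after Sce RNAi (q = 0.263) in the authors' deposited table, the largest ratio after Ph RNAi in any of the 7 lists. The main ETS effectors of the pathway, the activator gene pnt and the repressor gene aop, were at 0.854 times mock (q = 0.102) and 1.135 times mock (q = 0.294) after Ph RNAi in the authors' deposited table, and the Jun gene Jra was at 2.05 times (q = 0.268). In total RNA edl, which encodes a modulator of ETS factors, rose to 1.98 times mock (q = 0.04) and the corepressor gene gro to 1.42 times (q = 0.031) after Ph RNAi in the authors' deposited table.

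The insulin branch downstream of InR was present with all 16 genes and had 0 calls in nascent RNA. Among all genes 1.69% were called higher and 0.787% lower after Ph RNAi, and 0.0656% and 0.0525% after Sce RNAi. S6k, a kinase gene for growth control, was at 1.91 times mock after Ph RNAi (p = 0.015, q = 0.117), and Pi3K92E, the catalytic PI3 kinase subunit gene, at 1.58 times (q = 0.277) in the authors' deposited table. The receptor substrate gene chico and the kinase gene Akt1 were at 0.991 times mock (q = 0.663) and 1.37 times mock (q = 0.386) in the same comparison of the authors' deposited table. Tsc1, a brake on the Tor kinase, rose to 1.56 times mock in total RNA after Pc RNAi (q = 0.025 in the authors' deposited table).

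Genes with a pattern most like each of the 6 were found by Euclidean distance over the 5 log2 ratios, among 6941 other genes. For sev these were CG14945 (distance 1.02), CG4797 (1.22) and repo, the glial transcription factor gene (1.36). In the authors' deposited table repo was at 14.3 times mock in nascent RNA after Ph RNAi (q = 0.127), 0.56 times after Sce RNAi (q = 0.514) and 54.0 times in total RNA after Ph RNAi (q = 0.004). For rho they were CG15117 (1.20), ko (1.22) and Mgat2 (1.39), of which CG15117 and Mgat2 rose in nascent RNA after Ph RNAi to 27.0 and 17.6 times mock, both with q = 0.012 in the authors' deposited table. InR was closest to Mical (0.22), CG13472 (0.30) and RAF2 (0.34), Egfr to CG33695 (0.34), Pex23 (0.34) and CG17544 (0.36), and Pvr to CR42874 (0.18), CG11577 (0.19) and cyp33 (0.21). Alk had no close match, its nearest genes being CG32436 (1.69), GlcAT-P (1.84) and CG13907 (1.84). Both nascent ratios share the mock libraries and all 3 total RNA ratios share theirs, which adds to any likeness.

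By gene model, sev (FBgn0003366) lies on the X chromosome, Pvr (FBgn0032006) on arm 2L, Alk (FBgn0040505) and Egfr (FBgn0003731) on 2R, rho (FBgn0004635) on 3L and InR (FBgn0283499) on 3R. The 2 nearest genes of the table on each side of each of the 6, a choice made after the values were seen, gave 24 neighbours. In nascent RNA 0 of these passed after either treatment. All genes gave 1.69% higher and 0.787% lower there after Ph RNAi, and 0.0656% and 0.0525% after Sce RNAi. The genes flanking sev, Myo10A and CG2076, were at 1.003 times mock (q = 0.668) and 1.20 times mock (q = 0.434) in nascent RNA after Ph RNAi by the authors' deposited table. In total RNA after Ph RNAi 4 of the 24 rose and 1 fell, where all genes gave 3.52% and 0.367%, the rises being Picot and Amyrel beside Alk, CG10440 beside Egfr and CG2145 near sev. Picot, a phosphate transporter family gene, was at 43.4 times mock in nascent RNA after Ph RNAi with q = 0.056 in the authors' deposited table, while Alk 2 places away was at 0.237 times mock. The 1 that fell was C15, a homeobox gene 2 places from InR, at 0.094 times mock in total RNA (q = 0.011) and 0.109 times in nascent RNA (q = 0.056) after Ph RNAi in the authors' deposited table. In total RNA after Pc RNAi, where all genes gave 3.04% and 0.144%, 2 of the 24 rose and 1 fell. By the authors' deposited table these were MESK2 near Egfr at 2.65 times mock (q = 0.009), CG10440 at 16.1 times (q = 0.02) and C15 at 0.115 times (q = 0.034).

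Markers of cell types were followed because bulk RNA cannot separate a change in the number of cells of a type from a change in RNA per cell. Of 5 neuronal markers elav was in the table, at 9594 in mock, and of 5 neural stem cell markers mira and pros were, with summed nascent means of 12166 in mock, 38093 in the libraries labelled Ph RNAi and 14108 in those labelled Sce RNAi. The labelled neural origin could therefore be checked with these 3 genes alone, the other markers of both types being absent from the authors' table. Most of the summed signal came from pros, at 10964 in mock and 35791 in the libraries labelled Ph RNAi. In the authors' deposited table pros was at 3.26 times mock (q = 0.214) and mira at 1.915 times (q = 0.133) after Ph RNAi. After Sce RNAi that table lists 0.988 times for pros (q = 0.812) and 2.73 times for mira (q = 0.469). All 4 glial markers were in the table, with summed nascent means of 54600 in mock, 122190 in the libraries labelled Ph RNAi and 61173 in those labelled Sce RNAi. The glial markers did not move together after Ph RNAi: nrv2 rose to 4.64 times mock (q = 0.012) and repo was at 14.3 times (q = 0.127), while moody was at 0.89 times (q = 0.39) and Gs2 at 0.666 times (q = 0.525) in the authors' deposited table. The Gs2 means, 551 in mock and 367 in the libraries labelled Ph RNAi, lay under the low-signal limit of 581, so its ratio is uncertain. All 5 blood cell markers were in the table, with sums of 4175524 in mock, 1563397 in the libraries labelled Ph RNAi and 4588029 in those labelled Sce RNAi, nearly all of it from the matrix genes Cg25C, vkg and Ppn, while Hml was at 271 in mock. In the authors' deposited table Ppn fell to 0.313 times mock after Ph RNAi (q = 0.044), vkg, Cg25C and srp were at 0.374, 0.384 and 0.665 times (q from 0.058 to 0.083), and Hml was at 1.40 times (q = 0.448). The Hml means in mock and after Ph RNAi, 271 and 378, also lay under the low-signal limit, so that ratio is uncertain too. Of 3 muscle markers Mef2 was in the table, at 202283, 167956 and 191891 in the same order. No marker in the table was at 0. The part of these markers in the values of sev, rho or Alk was not tested.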

How the data were processed

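Groups of the 10 nascent RNA libraries were taken from their titles. The columns hold, per the file headers, the mean nascent signal of each group, and for nascent and total RNA the authors' deposited ratio to mock with its p-value and q-value. SAMtools and bedtools are the tools in the submitters' processing notes. The aligner and build, like the annotation, the test and how q was made, are not given in these sources. Deposited ratios, p-values and q-values have 3 decimals. Another 4 columns, of total RNA means, match no sample and were not used.

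The table gives no values per library, so no test of replicates was run and calls are those of the authors' q under 0.05. Log2 nascent ratios used a pseudocount of 581, the 10th percentile of the nascent means, which understates changes of low genes. The 6942 genes whose mean over the 3 nascent columns exceeded it were kept for medians and likeness, as were all 6 genes described. In total RNA, log2 was applied to the deposited ratio, 0 being read as 0.0005. Folds and times mock are the authors' deposited ratios. Gene identity, model length and overlaps came from the Ensembl annotation of BDGP6, which matched 7508 genes. Since the build of the table is not named, no coordinates are given, and no sequence table was used here.

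The genes, the lists and the design were chosen with earlier results of these data known. Named list genes were those with q under 0.05 in any comparison and the 2 with the largest absolute log2 nascent ratio after Ph RNAi, and further genes were added as examples with their values already known. The 3 likest genes were named for each of the 6. Alternatives were other pseudocounts, quantile normalization, no filter, q under 0.1, unadjusted p and Benjamini-Hochberg adjustment of the deposited p. The code was tested on simulated data. Python 3.11.15, pandas 2.3.3, NumPy 2.4.6, SciPy 1.17.1 and Matplotlib 3.10.9 were used.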

Additional observations from a re-analysis of the deposited data

How the results depend on the processing

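The calls of sev in nascent and total RNA after Ph RNAi and in total RNA after Pc RNAi, and that of rho after Pc RNAi, held with q under 0.1 and with Benjamini-Hochberg adjustment of the deposited p. For sev in nascent RNA that adjustment gave 0.046 with a p listed at 0 read as 0.0005. InR after Pc RNAi did not hold at 0.061, so 2 genes were called there in place of 3. Reading a p listed at 0 as 0 was added after seeing the data and changed no count further. At an unadjusted p under 0.05 the counts of the 6 genes were 3 after Ph RNAi in nascent RNA, 1 after Sce RNAi in nascent RNA, 3 after Ph RNAi in total RNA and 1 after Sce RNAi in total RNA, in place of 1, 0, 1 and 0, and 4 in place of 3 after Pc RNAi. The share of all genes at that p was 16.5%, 9.90%, 18.6%, 11.6% and 14.4% in the same order. No nascent log2 ratio of the 6 changed sign with a pseudocount 10 times larger or smaller or with quantile normalization of the group means. Of these 54 values 2 crossed a 1.5-fold mark, both under quantile normalization: InR after Ph RNAi at 0.57 in place of 0.70, and Egfr after Sce RNAi at -0.66 in place of -0.55. The values of sev moved most, with a pseudocount 10 times larger: from 4.54 to 3.38 between Ph RNAi and Sce RNAi, from -1.27 to -0.68 after Sce RNAi and from 3.26 to 2.70 after Ph RNAi. The ratios to mock and between means in the report use no pseudocount. Of 56 alternative list medians 6 moved by over 0.1. The other receptors' median after Ph RNAi was -0.06 with a pseudocount 10 times larger and -0.49 with one 10 times smaller, and that of the insulin branch was -0.06 under quantile normalization in place of 0.05. No paired analysis was possible because the table holds group means, and for the same reason no replicate could be left out.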
